A study of Mus musculus with 6 samples.

Results

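The genes described here encode the proteins of the cytosolic ribosome, measured in ribosome-bound RNA from the Purkinje neurons of the mouse cerebellum with and without the splicing factor RBM17. They were taken from the gene count table by symbol: Rpl or Rps followed by a number, together with Rplp0, Rplp1, Rplp2 and Rpsa, with a mean of at least 50 counts over the 6 libraries. Of 23420 rows, 83 matched by symbol and 77 had enough counts, 32 of the small (40S) subunit and 45 of the large (60S) subunit. The symbols bring in the paralogs Rps27l, Rpl22l1 and Rpl7l1. All 77 passed the filter on low counts and were tested. The lowest gene inside the count minimum was Rps27, with a mean of 126.5 counts, and the highest outside it was Rpl34, with 46.3.

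The 3 control libraries came from C57BL/6 mice 4 weeks old that carried the Pcp2-BacTrap transgene, 1 floxed and 1 wild-type Rbm17 allele (Rbm17 f/+) and no Cre. The 3 conditional knockout (cKO) libraries came from mice of the same strain and age with Pcp2-BacTRAP, Pcp2-Cre and 1 floxed and 1 null Rbm17 allele (Rbm17 f/-). Pcp2 is a Purkinje cell gene, and both the tagged ribosomal protein and the Cre were driven by it. Cre and the null allele were present in the cKO mice only, so their parts in a difference cannot be told apart, and neither can fewer Purkinje cells and less RNA per cell. Each library was made from 1 cerebellum. All 6 held ribosome-bound RNA, so the amount of an mRNA and its binding to ribosomes cannot be told apart either.

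A ribosome holds 1 copy of nearly every one of these proteins, and cells make them in matched amounts. Most of their mRNAs begin with a 5′ terminal oligopyrimidine (TOP) tract, a C followed by a run of pyrimidines, through which mTORC1 signalling sets their translation as a group. Some ribosomal proteins also act outside the ribosome: RPL5 and RPL11 bind the p53 inhibitor MDM2, and several members limit their own splicing or that of a paralog. In BacTRAP the ribosome itself is the handle, because a GFP-tagged copy of RPL10A is pulled down with the mRNA its ribosomes carry.

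Rbm17 stood at 41.2, 42.5 and 41.3 CPM (gene counts scaled to the TMM-adjusted library size) in control and at 25.7, 25.6 and 26.3 in cKO, so that the groups did not overlap (log2 fold change -0.69, SE 0.09, edgeR quasi-likelihood test, adjusted p = 0.0016). Gene counts per library lay between 140110897 and 160571518. Of these, 9.56% to 13.5% fell on Rn45s, the precursor of ribosomal RNA. Over all 16067 genes tested, edgeR called 647 higher and 618 lower, and DESeq2 called 1020 and 1022. At an unadjusted p under 0.05 in edgeR, 1848 were higher and 1702 lower. Of 22 Purkinje cell markers 10 fell and 0 rose in edgeR (13 and 0 in DESeq2, 15 and 0 at an unadjusted p under 0.05), and their summed level was 34543 to 46738 CPM in control and 21792 to 25011 in cKO. Of 20 microglial and macrophage markers 10 rose and 0 fell in edgeR (11 and 0 in DESeq2, 13 and 0 at an unadjusted p under 0.05), with a summed level of 75.1 to 106.9 CPM in control and 142.3 to 239.0 in cKO. Every one of these 20 markers had counts in control. Of 13 markers of astrocytes and Bergmann glia 1 rose and 2 fell in edgeR (1 and 4 in DESeq2, 1 and 5 at an unadjusted p under 0.05; median log2 fold change -0.23), with a summed level of 5072.3 to 5744.7 CPM in control and 3946.8 to 4568.5 in cKO. Of 14 oligodendrocyte markers 0 rose and 1 fell (0 and 2 in DESeq2, 0 and 4 at an unadjusted p under 0.05; median -0.30), with sums that overlapped.

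Most ribosomal protein mRNAs had a slightly higher estimate in cKO, and a minority of them rose. Of the 77 genes 12 rose and 1 fell (edgeR quasi-likelihood test, Benjamini-Hochberg adjusted p under 0.05 over all 16067 genes tested), that is 15.6% raised where 4.03% of all tested genes rose and 3.85% fell, or 7.87% in either direction. DESeq2 called 15 members higher and 1 lower, where it called 1020 higher and 1022 lower of the 16067 genes. The median log2 fold change was 0.13 with quartiles of 0.03 and 0.24, against a median of 0.01 over all tested genes. The estimate was above 0 for 65 members, or 84.4%, where 50.8% of all tested genes were above 0. In 35 of the 77 members every cKO library lay above every control library, where this held for only 15% of all tested genes. The order was the opposite in 3 of the 77, where it was so for 13.4% of all tested genes. The members' median itself depended on the scaling: it was 0.13 with TMM, 0.12 with RLE, 0.15 with upper quartile and 0.25 with total counts. Relative to the median of all genes it was 0.12 with each. A scaling factor shifts all genes nearly alike, so this difference cannot test the scaling. Total counts alone shifted the median of all tested genes by 0.12 and called 990 genes higher and 344 lower, beside 647 higher and 618 lower with TMM. Under total counts 20 members rose.

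**Figure D1:**
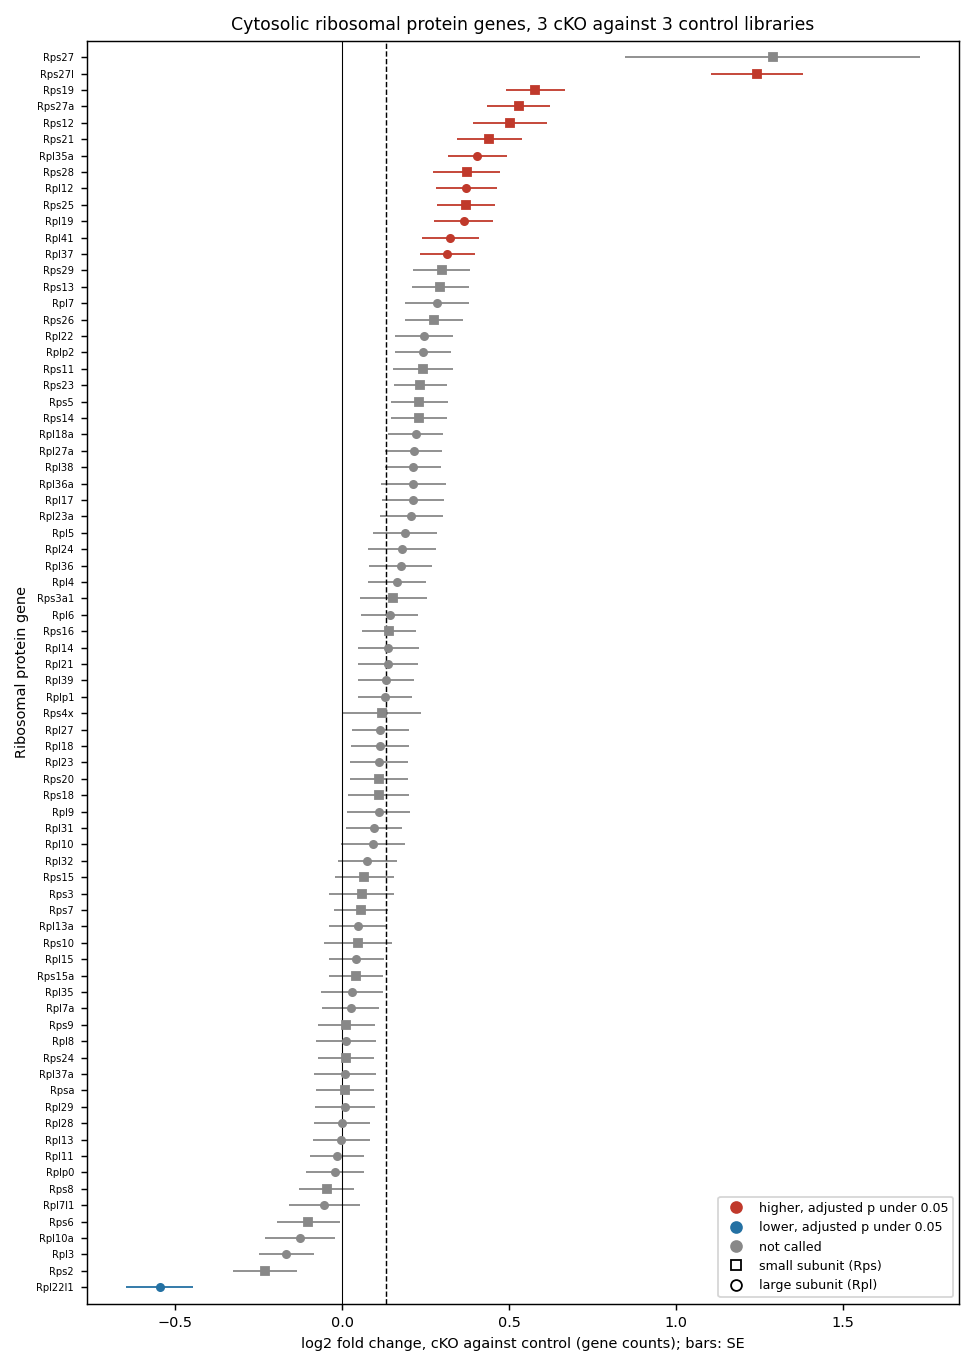
Log2 fold change of 76 of the 77 ribosomal protein genes, cKO against control (x axis), with its standard error as a bar. Squares are genes of the small subunit and circles of the large subunit; red genes rose and the blue gene fell at an adjusted p under 0.05; the dashed line is the median of all 77, 0.13. Most genes lie in a narrow band just above 0, while Rps27l at 1.24 and Rpl22l1 at -0.55 stand at opposite ends among the called genes.

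The summed level of the 77 genes shows the same shift by library. They took 7378, 7543 and 7991 CPM of unscaled gene counts in the control libraries and 9721, 8527 and 8744 in the cKO libraries, a ratio of 1.18 between the group means. On TMM-scaled library sizes the sums were 7944, 7844 and 8071 against 8861, 8398 and 8616 CPM, a ratio of 1.08. The groups did not overlap on either scale. The cKO replicate 1 library was the highest of the 6 for 33 of the 77 genes and control replicate 2 was the lowest for 33. Leaving out cKO replicate 1 gave a ratio of 1.13 on the unscaled counts. The cKO replicate 1 library also had the highest microglial sum, 239.0 CPM, and the lowest Purkinje sum, 21792 CPM. The part of other cell types in the rise was not tested.

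Most single calls were close to the threshold. With 1 library left out at a time, Rps19, Rps27l and Rpl22l1 kept their calls in all 6 fits, and Rps27a lost its call in 1 of them, without control replicate 2 (adjusted p = 0.062 in edgeR). The number of raised members was 9 without control replicate 1, 2 without control replicate 2 and 3 without control replicate 3. When cKO replicate 1, 2 or 3 was the library left out it was 4, 4 and 3. The count over all genes moved as well. Without control replicate 1, 2 or 3, 501, 264 and 402 of all genes rose, and 292 rose without cKO replicate 3. Rpl12, Rpl19, Rpl37 and Rps28 lost their calls in every one of the 6 fits, with adjusted p from 0.053 to 0.21. The direction of these 13 calls was the same in all 6 fits.

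Among the small subunit genes 7 of 32 rose and 0 fell, with a median log2 fold change of 0.15. At an unadjusted p under 0.05, 15 were higher and 1 lower, and DESeq2 called 10 higher and 0 lower. Rps19, the gene most often mutated in Diamond-Blackfan anaemia, whose protein is needed to mature the 3′ end of 18S ribosomal RNA (chromosome 7, 24884371 to 24889806, mm10), had the smallest p of the raised genes after Rps27l. Its level was 30.6, 30.3 and 31.8 CPM in control and 46.0, 44.4 and 48.0 CPM in cKO. The groups stood well apart, with little spread inside either (1.49-fold; log2 fold change 0.58, SE 0.09; adjusted p = 0.0040 in edgeR). Rps27a (chromosome 11, 29545846 to 29548109) encodes ubiquitin fused to the 40S protein eS31. It rose from 58.2, 54.6 and 59.5 to 88.7, 75.9 and 83.8 CPM (log2 fold change 0.53, SE 0.09; adjusted p = 0.0080 in edgeR). The cKO libraries of Rps27a differed more among themselves than those of Rps19, and none reached down to the control range.

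Rps12 encodes a protein near the beak of the 40S subunit. It stood at 18.2, 15.3 and 16.7 CPM in control and at 23.8, 22.8 and 24.6 in cKO. The log2 fold change of Rps12 was 0.50 (SE 0.11, edgeR adjusted p = 0.023). Its call was kept in 1 of the 6 fits with a library left out, the one without control replicate 1. Rps21, a small 40S protein, stood at 30.2, 29.004 and 30.3 CPM in control and at 37.2, 40.6 and 43.7 in cKO (log2 fold change 0.44, edgeR adjusted p = 0.023). Without control replicate 2, control replicate 3, cKO replicate 2 or cKO replicate 3 its adjusted p was over 0.05, with 0.12 as the highest over the 6 fits. Rps25, which lies at the head of the 40S subunit and is used by viral internal ribosome entry sites, rose from 108.8 ± 3.8 to 140.5 ± 8.7 CPM (SD, n = 3 each; log2 fold change 0.37, edgeR adjusted p = 0.029). It lost its call without control replicate 2, control replicate 3, cKO replicate 1 or cKO replicate 3 (highest adjusted p 0.16). Rps28, at the mRNA exit side of the 40S subunit, stood at 24.2 ± 1.3 and 31.3 ± 1.7 CPM (SD, n = 3 each; log2 fold change 0.37, edgeR adjusted p just under the threshold at 0.0497).

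The other small subunit genes did not pass the test. Rpsa, which encodes the ribosomal protein also known as the laminin receptor, stood at 165.7, 167.6 and 177.6 CPM in control and at 158.8, 179.1 and 175.5 in cKO, so that the groups overlapped. Rps6, whose protein is the classical substrate of the S6 kinases, stood at 115.3, 113.5 and 128.0 CPM in control and at 117.9, 101.0 and 113.5 in cKO (log2 fold change -0.10, SE 0.10, and 0.02 under total counts; edgeR adjusted p = 0.60). The lowest estimate of the small subunit was that of Rps2, a protein of the mRNA entry channel. Rps2 stood at 92.1, 92.1 and 84.1 CPM in control and at 83.6, 70.7 and 74.0 in cKO, without overlap, but its log2 fold change of -0.23 (SE 0.10) did not pass the test (edgeR adjusted p = 0.18).

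Among the large subunit genes 5 of 45 rose and 1 fell, with a median log2 fold change of 0.13. Rpl35a, another gene mutated in Diamond-Blackfan anaemia, stood at 47.3, 42.4 and 47.7 CPM in control and at 61.2, 59.0 and 61.6 in cKO (log2 fold change 0.40, SE 0.09; adjusted p = 0.023 in edgeR). Its call was kept only without control replicate 1, as was that of Rpl41, and the highest adjusted p over the 6 fits was 0.14 for Rpl35a and 0.21 for Rpl41. Rpl12, a protein of the base of the ribosomal stalk, stood at 51.3 ± 2.9 and 66.4 ± 3.4 CPM (SD, n = 3 each; log2 fold change 0.37, edgeR adjusted p = 0.034). Rpl19, part of a bridge between the subunits, stood at 147.2 ± 10 and 189.4 ± 7.7 CPM (SD, n = 3 each; log2 fold change 0.36, edgeR adjusted p = 0.033). Rpl41, the shortest ribosomal protein, stood at 197.5 ± 12 and 247.2 ± 7.8 CPM, and Rpl37 at 65.3 ± 2.1 and 81.2 ± 1.7 CPM (SD, n = 3 each). Their log2 fold changes were 0.32 and 0.31, with edgeR adjusted p of 0.046 and 0.045. In none of these 5 genes did a cKO library lie within the control range.

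The stalk proteins, which recruit the translation factors to the ribosome, are made from Rplp0, Rplp1 and Rplp2, and none passed the test. Rplp0 stood at 77.4 ± 4.1 and 76.1 ± 3.0 CPM (SD, n = 3 each) with overlapping groups. Rplp1 stood at 128.8, 133.2 and 132.3 CPM in control and at 142.6, 147.4 and 140.8 in cKO. Rplp2 stood at 112.5 ± 2.7 and 133.0 ± 7.3 CPM (SD, n = 3 each). Both Rplp1 and Rplp2 were higher in all 3 cKO libraries than in any control library, with log2 fold changes of 0.13 and 0.24 and edgeR adjusted p of 0.40 and 0.12. Total counts took Rplp2 past the threshold (adjusted p = 0.037 in edgeR).

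Rpl5 and Rpl11 encode the proteins that, with 5S ribosomal RNA, bind MDM2. Rpl5 stood at 98.2, 105.2 and 93.2 CPM in control and at 121.3, 102.9 and 113.5 in cKO, with overlapping groups (log2 fold change 0.19, SE 0.10; adjusted p = 0.29 in edgeR). Rpl11 stood at 171.9, 182.8 and 189.1 CPM in control and at 178.6, 178.9 and 180.4 in cKO, inside the control range. The log2 fold change of Rpl11 was -0.02 (SE 0.08), and 0.10 under total counts. Mdm2 itself, which is no ribosomal protein gene, was counted at 131.3 ± 0.68 CPM in control and 165.6 ± 6.5 CPM in cKO (SD, n = 3 each; log2 fold change 0.33, edgeR adjusted p = 0.032).

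Rpl10a is the gene of the protein that carries the GFP tag in BacTRAP, so its reads can come from the transgene as well as from the endogenous gene, and the counts do not part the sources. It had the highest level per length of the 77 genes, 429.4 ± 55 CPM per kb of transcript in control (SD, n = 3). Its level was 359.4, 294.8 and 285.0 CPM in control and 296.0, 269.4 and 295.0 CPM in cKO, with overlap (log2 fold change -0.13, SE 0.11; adjusted p = 0.55 in edgeR). Other members high per length were Rpl41, Rpl31 and Rpl7a, at 388.0, 304.8 and 288.8 CPM per kb in control, with SDs of 24, 14 and 14. Rpl10a and Rpl41 did not differ beyond their spread, and neither did Rpl31 and Rpl7a. Rpl31 and Rpl7a did not pass the test, with log2 fold changes of 0.09 and 0.03. The estimate of Rpl7a was -0.0067 without control replicate 1.

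Rps27l (chromosome 9, 66946086 to 66949516) differs from its ubiquitous sister Rps27 by a few residues and is a known p53 target, and it had the largest fold change of any called member. Rps27l was counted at 7.47, 5.93 and 7.01 CPM in control and at 17.2, 15.6 and 15.5 CPM in cKO. The cKO libraries lay close together and far above the control range (6.81 ± 0.79 and 16.1 ± 0.93 CPM, SD, n = 3 each; 2.36-fold; log2 fold change 1.24, SE 0.14; adjusted p = 0.00078 in edgeR). Over the 6 fits with a library left out the log2 fold change lay between 1.13 and 1.31 and the adjusted p between 0.0013 and 0.0061. Without Rps27 and Rps27l the other 75 genes had 11 higher and 1 lower and a median of 0.13.

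Rpl22l1 (chromosome 3, 28805436 to 28807424), the paralog of Rpl22, was the single gene of the 77 that fell. RPL22 is known to bind Rpl22l1 RNA and to lower its expression in other cells. Rpl22l1 stood at 28.98, 30.2 and 28.5 CPM in control and at 20.5, 18.8 and 20.8 CPM in cKO. The gap between the groups was clear, with little spread in either. Its log2 fold change was -0.55 (SE 0.10, edgeR adjusted p = 0.0093, and 0.018 to 0.048 over the 6 fits with a library left out). Rpl22 stood at 69.5, 61.3 and 63.5 CPM in control and at 76.8, 76.8 and 76.5 CPM in cKO. Its groups did not overlap, but its log2 fold change of 0.24 (SE 0.09) did not pass the test (edgeR adjusted p = 0.13, and 0.036 with total counts). The ratio of Rpl22l1 to Rpl22 counts was 0.417, 0.492 and 0.449 in the control libraries and 0.266, 0.245 and 0.271 in the cKO libraries. The ratio was thus lower in each cKO library than in any control library.

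No member of the remaining pairs passed the test. Rpl7l1, a nucleolar relative of Rpl7, stood at 24.2 ± 1.6 and 23.2 ± 1.5 CPM (SD, n = 3 each), while Rpl7 stood at 96.3 ± 2.1 and 117.3 ± 12 CPM (log2 fold change 0.28, edgeR adjusted p = 0.11). Rpl36a stood at 35.3 ± 3.0 and 40.9 ± 1.1 CPM, and its retrogene copy Rpl36al, which the symbol rule leaves out, at 67.9 ± 4.5 and 65.0 ± 4.2 CPM (SD, n = 3 each). Rpl39 stood at 60.3 ± 1.7 and 66.1 ± 1.5 CPM and Rpl10 at 118.1 ± 1.6 and 125.9 ± 14 CPM (SD, n = 3 each), and neither passed the test. Their tissue-restricted relatives were close to absent: the mean count was 1 for Rpl39l, and Rpl10l had no count in any library. Rpl3l, the heart and skeletal muscle form of Rpl3, had a mean of 33.5 counts. Rpl3 stood at 186.2, 184.6 and 188.3 CPM in control and at 175.4, 161.1 and 161.03 in cKO, without overlap (log2 fold change -0.17, SE 0.08; adjusted p = 0.26 in edgeR).

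**Figure D2:**
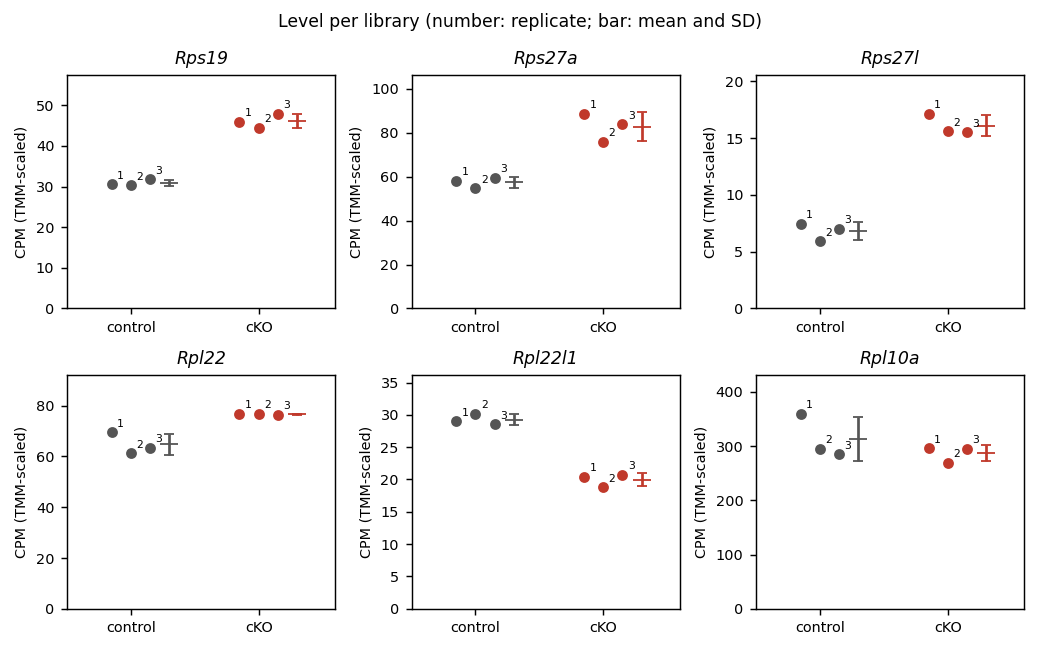
Level of 6 ribosomal protein genes in each library (y axis, CPM on TMM-scaled library sizes, from 0), with the replicate number beside each point and the mean with its SD as a bar. Rps19, Rps27a and Rps27l were higher and Rpl22l1 was lower in every cKO library than in any control library; Rpl22 was also higher in all 3 cKO libraries but did not pass the test, and the groups of Rpl10a overlapped.

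The mouse genome holds many processed copies of ribosomal protein genes, which have no introns, and how reads with several alignments were counted is not given in the sources used here. Reads that span annotated introns give a second measure of these genes from the same libraries, since intronless copies cannot give such reads unless they are misaligned. From spliced reads 11 of the 77 genes rose and 1 fell, where 2.95% of 14719 genes rose and 2.89% fell. Of these calls 11 were shared with the gene counts, namely Rpl12, Rpl19, Rpl22l1, Rpl35a, Rps12, Rps19, Rps21, Rps25, Rps27a, Rps27l and Rps28. Rpl37 and Rpl41 were called from gene counts only, with edgeR adjusted p of 0.052 and 0.053 from spliced reads. Across 75 members, without Rps27 and Rps27l, the log2 fold changes of the measures had a Spearman rho of 0.98 (Pearson 0.99). These points share their libraries, and genes are not independent replicates. A read across an intron can also enter the gene count, so the measures share reads and a high rho does not test either of them.

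Among the rows matched, 4 were nearly empty although their introns were crossed by many reads. Rpl26, a 60S protein also known to bind p53 mRNA, had 0, 0 and 0 counts in control and 2, 0 and 0 in cKO, but 6233, 6644 and 6691 spliced reads in control and 8226, 7625 and 8826 in cKO. Rpl30, which controls its own splicing in yeast, had 17 to 35 counts and 19352 to 30659 spliced reads per library. Rpl34 had 33 to 55 counts and 4991 to 7568 spliced reads. Rps27 had 46 to 219 counts and 13927 to 23352 spliced reads. For these genes the deposited count does not follow the transcript's abundance, and the cause was not tested. In spliced reads scaled in the same way as CPM (RPM), Rpl26 stood at 91.5, 89.1 and 94.1 in control and at 100.04, 102.1 and 104.4 in cKO (log2 fold change 0.16, edgeR adjusted p = 0.39). Rpl30 stood at 290.8, 291.1 and 272.1 RPM in control and at 372.9, 338.4 and 339.0 RPM in cKO (log2 fold change 0.30, edgeR adjusted p = 0.083), and Rpl34 had a log2 fold change of 0.18.

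Rps27 is the gene whose value turned most on the measure. Its gene counts gave 0.550, 0.320 and 0.584 CPM in control and 1.35, 1.15 and 1.05 CPM in cKO, a log2 fold change of 1.29 with an SE of 0.44 that did not pass the test (edgeR adjusted p = 0.11; DESeq2 adjusted p = 0.036). Its spliced reads gave 204.6, 208.1 and 210.1 RPM in control and 284.0, 294.3 and 263.3 RPM in cKO. That is a log2 fold change of 0.43 (SE 0.09) that passed it (edgeR adjusted p = 0.018). In spliced reads Rps27l was 0.0796, 0.0625 and 0.0761 of Rps27 in the control libraries and 0.137, 0.117 and 0.132 in the cKO libraries. The p53-induced form thus stayed the minor one of the pair in every library while its proportion was higher in each cKO library. Rpl22 also had a larger estimate from spliced reads, 0.38 (SE 0.10; adjusted p = 0.054 in edgeR), and Rpl22l1 had -0.55 by both measures.

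**Figure D3:**
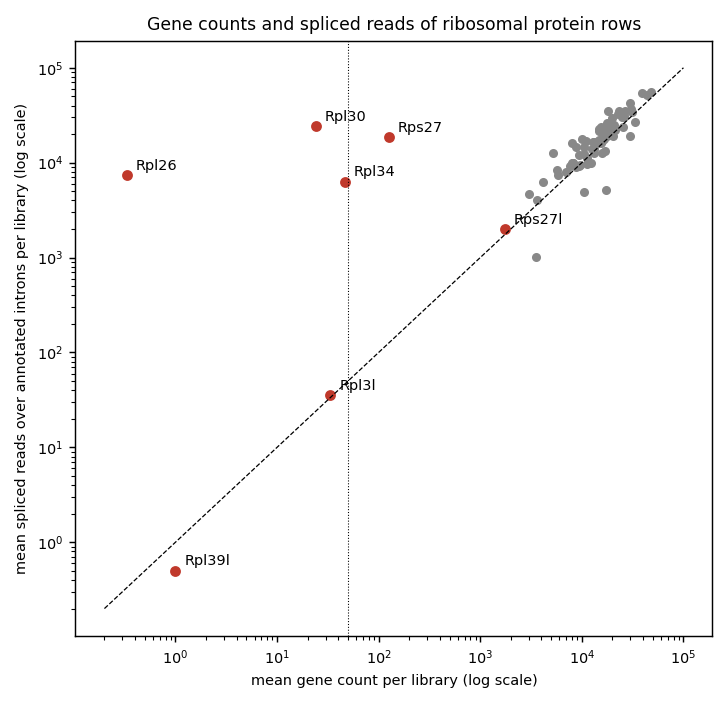
Mean gene count per library (x axis, log scale) against mean reads over annotated introns per library (y axis, log scale) for the rows that match the symbol rule; the dashed line marks equality and the dotted line the minimum of 50 counts. Rpl26, Rpl30, Rpl34 and Rps27 stand far above the line, with many spliced reads and few gene counts, while Rps27l, Rpl3l and Rpl39l lie near it.

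The calls were unevenly spread over protein length, a split chosen after the values were seen. Of the 40 members with a coding length of at most 468 bp, the median of the members, 10 rose and 1 fell, with a median log2 fold change of 0.21. Of the 37 longer members 2 rose, Rpl12 and Rpl19, and 0 fell, with a median of 0.06. At an unadjusted p under 0.05 the longer members had 7 higher and 1 lower, and DESeq2 called 2 higher and 0 lower. All 1036 tested genes of at most 468 bp had 74 higher and 60 lower, with a median of 0.08. Across the 75 members without Rps27 and Rps27l, log2 fold change and coding length had a Spearman rho of -0.40 (Pearson -0.36 with log2 length), against -0.05 across 14290 tested genes. The level per length in control showed less of a relation, with a rho of -0.15. Genes are not independent replicates, and short genes share the limits of sheared and size-selected libraries. The part of fragment length in this relation was not tested.

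**Figure D4:**
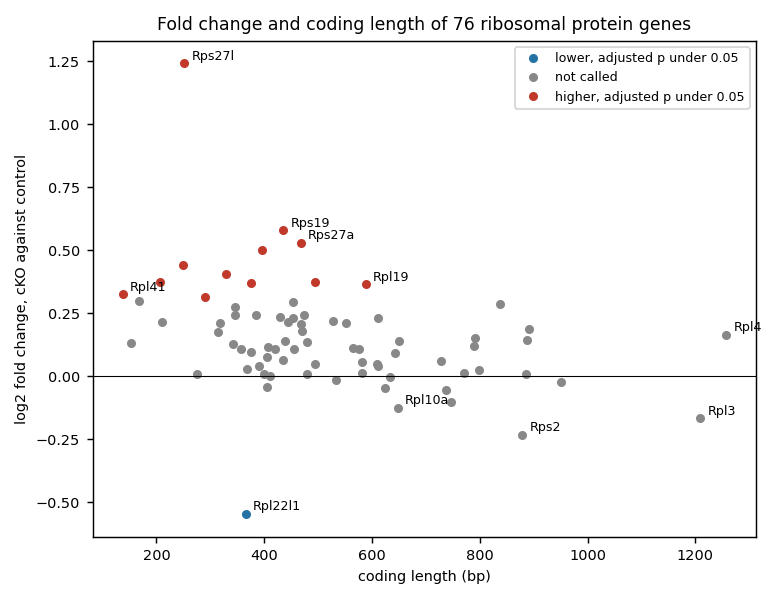
Coding length (x axis, bp) against log2 fold change, cKO against control (y axis), for 76 members, without Rps27. Red genes rose and the blue gene fell at an adjusted p under 0.05; most of the raised genes lie at the short end, while the long members Rpl4, Rpl3 and Rps2 lie at 0.16, -0.17 and -0.23.

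Splice junctions inside the members were next compared, because RBM17 takes part in the recognition of 3′ splice sites. A junction cluster holds junctions linked by shared donors or acceptors, directly or through other junctions, and can span several introns. To pass, a junction needed an adjusted p under 0.05 and a change of at least 5 percentage points of its cluster. Of 364 junctions tested in 68 of the 77 genes, 2 passed. That is 0.549% where 0.751% of the 112047 junctions tested in all genes passed. Without the condition on size 18 junctions of 11 genes passed, 15 higher and 3 lower in cKO, or 4.95% against 2.27% of all junctions. Reads on introns that are not annotated made up 0.138% to 0.171% of the members' junction reads in control and 0.187% to 0.253% in cKO, with no overlap. In all genes their share was 0.888% to 0.908% in control and 1.23% to 1.32% in cKO. Most of the altered junctions in ribosomal protein genes thus took a small share of the reads of their cluster, which is not a share of transcripts.

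The sequences at the altered sites of Rpl13, Rpl22l1, Rps28, Rps19 and Rpl11 are printed because each shows what the alternative junction adds or takes away. They are GENCODE transcript sequences in mm10, 5′ to 3′ on the gene's strand. For Rpl13 the capitals mark the bases at the start of exon 2 that the alternative acceptor leaves out (chr8:123102653-123102682, plus strand). For Rpl22l1 they mark the last bases of the intron at both acceptors (chr3:28806650-28806758, plus strand). For Rps28 they mark the bases left out by the alternative donor (chr17:33823197-33823226, minus strand). For Rps19 they mark the stop codon in the frame of the first ATG (chr7:24886107-24886187, plus strand). The Rpl11 exon (chr4:136047812-136047853, minus strand) has no capitals.
Rpl13: GCAGccatggcgcccagccggaatggcatg
Rpl22l1: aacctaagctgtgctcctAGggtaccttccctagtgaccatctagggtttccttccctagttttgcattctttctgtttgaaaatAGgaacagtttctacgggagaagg
Rps28: agctcgaagGTTGCGTTAATCTTGCAGCTG
Rps19: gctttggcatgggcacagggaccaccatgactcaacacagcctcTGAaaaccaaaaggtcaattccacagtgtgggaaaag
Rpl11: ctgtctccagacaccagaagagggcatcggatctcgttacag

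Rpl13, a 60S protein, had the largest change in share among the 18 member junctions that passed the test. The junction from exon 1 to an acceptor 4 bases inside exon 2 (chromosome 8, intron 123102446 to 123102656, not annotated) had 3, 2 and 0 reads in the control libraries and 164, 121 and 156 in the cKO libraries. Its share was 0.12% ± 0.12 of the cluster in control and 8.1% ± 0.85 in cKO (SD, n = 3 each), a rise with an adjusted p of 1.7e-06 in the edgeR junction test. The 4 bases lie in the 5′ untranslated region, and the atg of the start codon follows them in the printed sequence, so the reading frame is kept. The level of Rpl13 itself was 207.8 ± 13 CPM in control and 207.3 ± 6.3 CPM in cKO (SD, n = 3 each).

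In Rpl22l1, the gene that fell, the cKO libraries used an upstream acceptor more often. This junction (chromosome 3, intron 28806593 to 28806669) ends 67 bases before exon 3 and belongs to an annotated transcript classed as a target of nonsense-mediated decay. It had 14, 53 and 33 reads in control and 147, 112 and 166 in cKO, and its mean share went up from 1.52% ± 0.79 to 8.49% ± 0.69 (SD, 3 libraries each; adjusted p = 0.0015 in the junction test of edgeR). The regular junction to exon 3 had 1942, 2256 and 2071 reads in control and 1545, 1334 and 1662 in cKO. The extra 67 bases are no multiple of a codon, and in the decay transcript the first stop in frame comes 23 bases into exon 3. Both the lower gene level and the higher share of the decay junction were seen in every cKO library, and how far one contributes to the other was not tested.

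Rps19 carries an 81-base exon of an annotated decay transcript between its regular exons (chromosome 7, 24886107 to 24886187), with a stop codon after 44 of its bases. Its inclusion, estimated from the junctions on both sides and the skipping junction, was 4.09%, 6.41% and 6.81% in control and 12.3%, 10.4% and 15.2% in cKO. The groups did not overlap, but the junctions into and out of the exon did not pass the test (edgeR junction test, adjusted p = 0.070 and 0.093). They came past it when cKO replicate 2 was left out (1 junction) or when junctions needed at least 50 reads (1 junction). With a block on the replicate number both junctions passed. The regular skipping junction had 1936, 2036 and 1930 reads in control and 3122, 2790 and 3144 in cKO, so that in Rps19 reads of both forms were more numerous in cKO.

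Rps28 used a donor 21 bases upstream of the regular one in its last coding exon. The junction (chromosome 17, intron 33823117 to 33823217, not annotated) had 0, 0 and 2 reads in control and 59, 57 and 65 in cKO, and its mean share went up from 0.08% ± 0.14 to 4.0% ± 0.19 (SD, 3 libraries each; adjusted p = 0.00037 in the junction test of edgeR). The annotated stop codon lies within the 21 bases that are left out. Read on from the start codon, the spliced form differs from codon 68 and has 82 codons before a stop, where the regular form has 69.

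Rpl11 and Rpl27 gained reads over annotated exons of minor transcripts. In Rpl11 a junction led from an exon of the coding gene to a 42-base exon several kilobases downstream (chromosome 4, intron 136047854 to 136051170). This junction, itself not annotated, had 0, 19 and 0 reads in control and 545, 339 and 355 in cKO. Its share of the cluster rose from 0.029% ± 0.050 to 1.65% ± 0.40 (SD, n = 3 each, adjusted p under 0.05 in edgeR's junction test). The following junctions (136028706 to 136047811 and 136028521 to 136028625, both annotated) reached 1.65% and 2.28% in cKO. This cluster spans several introns, so these percentages are not shares of transcripts and cannot be ranked against those of Rpl13 or Rpl22l1. Junctions were counted singly, and which coding exons of Rpl11 such transcripts hold was not tested. In Rpl27 a 45-base exon (chromosome 11, 101443955 to 101443999) had no junction read in the 3 control libraries, and its inclusion was 1.69%, 1.14% and 1.35% in cKO. The skipping junction of Rpl27 had 5144 to 5734 reads per control library. Junctions that are not annotated also passed in both genes, with no read in control. In Rpl27 that from 101444000 to 101939739 had 39, 19 and 31 reads in cKO, and that from 101444002 to 101445219 had 41, 29 and 15. The inclusion counts neither of them. In Rpl11 the junction from 136028706 to 136047808 had 42, 12 and 13 reads in cKO.

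The rest of the 18 took small shares of their clusters. Junctions in Rpl27a, Rps23 and Rps29 rose from no reads in control to mean shares of 0.16% to 0.22% in cKO. Those that fell, in Rpl10a, Rpl14 and Rpl15, rested on 2 of the 3 control libraries each: the Rpl15 junction had 0, 150 and 149 reads in control, the Rpl14 junction 45, 0 and 42, and the Rpl10a junction 183, 1 and 147.

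**Figure D5:**
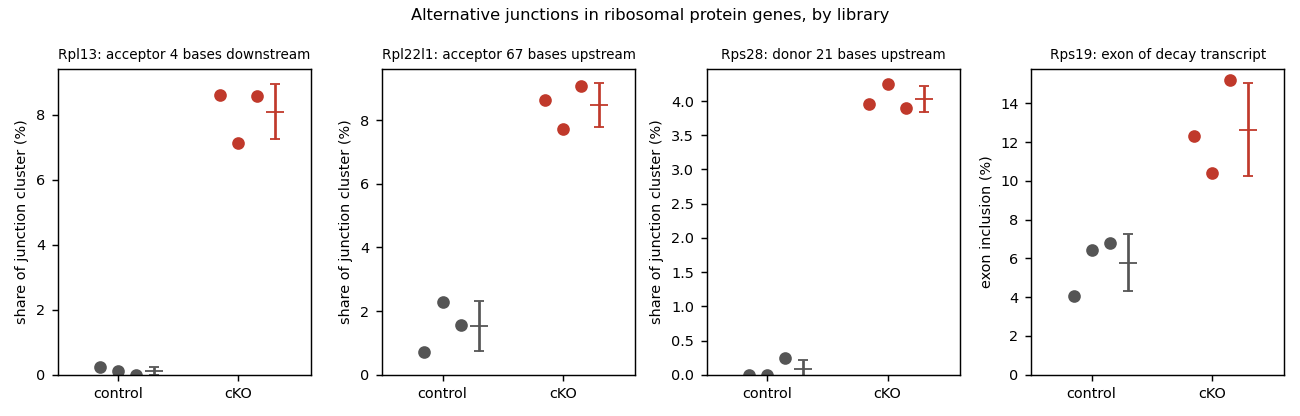
Share of alternative junctions within their cluster for Rpl13, Rpl22l1 and Rps28, and inclusion of the decay exon of Rps19 (y axes, percent, from 0), in each library, with mean and SD as a bar. In all 4 panels every cKO library lies above every control library; the Rps19 junctions did not pass the test.

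The start sites of the members were searched for a pyrimidine run on the RefSeq windows of build GRCm38.p6. Of the 77 genes 58 had a window. The motif CTTTCC on the gene's strand, within the 50 bases before and after an annotated start, was found in 17 of the 58, or 29.3%, where 5.43% of 27025 genes and 4.69% of all windows held it. Among the raised members with a window it was found in 3 of 11. These were Rps19, Rpl35a and Rpl19. A stretch of 30 bases around the motif, which is in capitals, is shown for each (chr7:24884612-24884641, chr16:33056472-33056501 and chr11:98026944-98026973, all on the plus strand). The motif begins 43, 31 and 34 bases downstream of the annotated start of the window searched, so in none of the 3 does it open the annotated transcript as a TOP tract would. In the other members with the motif its offset from the annotated start ran from -32 bases in Rpl22 to 35 in Rpl6, and was 0 in Rpl38. The longer CTTTTCC was found in 12.1% of members and 1.48% of genes. On either strand of the 300 bases CCGGAAG was found in 39.7% and 9.93% and AAGATGGC in 10.3% and 3.19%.
Rps19: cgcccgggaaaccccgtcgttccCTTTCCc
Rpl35a: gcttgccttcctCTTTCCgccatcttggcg
Rpl19: gcggcccacaagctCTTTCCtttcgctgct

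The genes that build or drive the ribosome were counted from lists, beside a background of 4.03% of all tested genes higher and 3.85% lower in edgeR. At an unadjusted p under 0.05 the background was larger, 1848 higher and 1702 lower of 16067 genes. By DESeq2 it was 1020 higher and 1022 lower. Of 76 tested genes of ribosome biogenesis 0 passed the edgeR test in either direction, with a median log2 fold change of 0.07. At an unadjusted p under 0.05, 8 of them were higher and 5 lower, and DESeq2 called 0 higher and 1 lower. The nucleolar GTPase gene Gnl3l stood at 231.4 ± 47 and 212.1 ± 18 CPM (SD, n = 3 each) and Rrp1, which acts in 60S assembly, at 227.5 ± 0.22 and 238.3 ± 8.4 CPM. Of 12 genes of RNA polymerase I and its factors 0 passed (2 higher and 0 lower at an unadjusted p under 0.05, none by DESeq2), and the polymerase factor Ubtf stood at 83.6 ± 1.7 and 84.3 ± 3.1 CPM (SD, n = 3 each).

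Among 38 translation initiation factors 1 rose, Eif3b, a core subunit of the factor that loads the 40S subunit, from 24.7 ± 1.1 to 36.0 ± 4.2 CPM (SD, n = 3 each; log2 fold change 0.55, edgeR adjusted p = 0.015). The list had 10 higher and 1 lower at an unadjusted p under 0.05 and 2 higher and 1 lower by DESeq2. Its estimates were above 0 for 28 of 38 genes, with a median of 0.08 on the log2 scale. Of 15 elongation and release factors 0 passed (3 higher and 0 lower at an unadjusted p under 0.05, 1 higher by DESeq2). Eef1a1, which has a TOP tract as the ribosomal protein mRNAs do, stood at 475.4 ± 8.1 and 550.4 ± 40 CPM (SD, n = 3 each; log2 fold change 0.21, edgeR adjusted p = 0.18), and Eef2 at 479.8 ± 21 and 515.4 ± 14 CPM. Of 33 genes of mTORC1 and the regulators of TOP mRNAs 2 rose and 0 fell in edgeR, or 6.06% higher, near the background (2 and 1 in DESeq2, 3 and 3 at an unadjusted p under 0.05). Sesn2, a p53 target that inhibits mTORC1, went from 11.9 ± 0.98 to 25.2 ± 4.3 CPM (SD, n = 3 each; log2 fold change 1.09, edgeR adjusted p = 0.0016). Rps6kb2, an S6 kinase, went from 15.1 ± 0.32 to 20.04 ± 0.65 CPM (SD, n = 3 each; log2 fold change 0.41, edgeR adjusted p = 0.040).

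Of 19 genes of ribosome rescue and quality control 1 rose, or 5.26%, also near the background. It was the row B230120H23Rik, an older name of the gene of the kinase ZAK that senses stalled ribosomes. It went from 20.8 ± 2.4 to 83.2 ± 11 CPM (SD, n = 3 each; log2 fold change 2.00, edgeR adjusted p = 3.7e-05). Of the 76 mitochondrial ribosomal protein genes 1 rose and 7 fell, with a median of 0.01. Mrps25 fell from 40.8 ± 2.8 to 27.0 ± 1.1 CPM and Mrps12 from 60.9 ± 4.1 to 44.6 ± 1.2 CPM, while Mrps34 rose from 16.5 ± 1.1 to 25.8 ± 1.4 CPM (SD, n = 3 each; edgeR adjusted p = 0.0053, 0.015 and 0.0059). Of the 4 cytosolic ribosomal protein genes whose names the symbol rule misses, Fau, which encodes eS30 fused to a ubiquitin-like protein, rose from 95.0 ± 3.0 to 117.5 ± 2.9 CPM (SD, n = 3 each; log2 fold change 0.31, edgeR adjusted p = 0.047). The scaffold protein gene Gnb2l1 (RACK1) stood at 90.5 ± 2.7 and 93.0 ± 9.6 CPM.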

How the data were processed

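The authors deposited a table of raw counts of reads by gene for 6 libraries and a junction list for each library, whose count gives the reads across that junction. Per the labels' protocols, cDNA was amplified from RNA of 1 cerebellum with the NuGEN Ovation system, sheared and sequenced on an Illumina HiSeq instrument. Amplified reads are not independent molecules. The tools were TopHat2 2.1.0 and HTSeq 0.6.0 and the build mm10, per the submitters' processing notes. Annotation, strand setting and treatment of multiple alignments: not given in the sources used here. Reads shared with near-identical copies make single ribosomal protein genes uncertain.

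The test of genes was edgeR's quasi-likelihood test (edgeR 4.0.16, R 4.3.3) after filterByExpr and TMM scaling, with Benjamini-Hochberg adjustment over 16067 genes; SEs were taken from the F statistic. Spliced reads per gene, summed over GENCODE M21 introns, were tested in the same way. Junctions (10 reads over all libraries, reads in 2) were tested in their clusters with diffSpliceDGE. The gene and junction tests were tested on simulated data first. DESeq2 1.42.0 and limma-voom (limma 3.58.1) were alternatives. The members and all lists were chosen with earlier results of these data known. Single values of some genes are not reported here. Genes were named by rule: the called members, the 5 highest per length, the extremes of fold change, paralog pairs, Rpl10a, Rpl5, Rpl11 and widely used members, and up to 4 called genes of each other list, or the 2 most abundant where none was called. Of each list, not every gene the rule takes is printed. The remaining marker lists gave these counts: granule cells 0 higher and 0 lower of 14 (DESeq2 0 and 2; 0 and 2 at an unadjusted p under 0.05), interneurons 0 and 1 of 10 (0 and 1 by DESeq2 and at an unadjusted p under 0.05), and endothelial cells 0 and 0 of 12 (0 and 0 by DESeq2 and at an unadjusted p under 0.05). With 3 libraries a group, a permutation test of 1 value cannot go below p = 0.1. No 2 libraries agreed within sampling noise.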

Additional observations from a re-analysis of the deposited data

How the results depend on the processing

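Under the alternatives run on the gene fit (other scalings, filters and tests, a block on replicate number, left-out libraries, spliced reads), the median log2 fold change of the members stayed above 0, Rbm17 fell and Rpl22l1 was the 1 member called lower. With total gene counts 20 members, 990 genes higher and 344 genes lower were called, and the members' median was 0.25. DESeq2 called 1020 genes higher and 1022 lower. With 1 library left out, 2 to 9 members were higher, 264 to 501 genes higher and 238 to 555 lower; the median was 0.10 to 0.15, the ratio of member shares 1.13 to 1.21, the log2 fold change of Rbm17 -0.71 to -0.68 and the member junctions called 2 to 3. A condition of 10 percentage points left 0 member junctions. Same-numbered libraries showed little common deviation (correlations 0.045, -0.062 and 0.021), but with 3 libraries a group this cannot settle whether the numbers pair them. A block on the replicate number gave 14 members higher and 1 lower, and 814 genes higher and 920 lower. It also gave 4 member junctions, both Rps19 decay junctions among them. Of the control libraries, 1 of 3 correlated best with the cKO library of its number.

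Estimates near 0 changed sign. Rpsa had -0.0026 with RLE scaling and DESeq2 and -0.028 to 0.058 with a library left out. Rpl11 had 0.0033 with upper quartile scaling, 0.101 with total counts and 0.0166 from spliced reads. Rpl7l1 had 0.0613 with total counts and 0.0710 from spliced reads. With total counts Rplp0 had 0.0974 and Rps6 0.0176. With a library left out Rplp0 had -0.0647 to 0.0054, Rpl7a -0.0067 to 0.0656 and Rpl10 -0.00055 to 0.143, and Rpl7a had -0.0097 from spliced reads. The cause was not tested. Fewer libraries also give a test with less power, so a call lost with a library left out need not rest on that library.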
